A study of Mus musculus with 4 samples.

Results

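Protocadherins are cell adhesion proteins of the cadherin superfamily, and the mouse genes whose symbol begins with Pcdh were followed here in adult cerebral cortex. They were found through the gene symbols of the authors' deposited table, which gave 66 of 45101 probe sets, standing for 36 of 20737 named genes. Of these, 24 genes with 31 probe sets belong to the clustered protocadherins (1 alpha, 22 beta and 1 gamma entry) and 12 genes with 35 probe sets lie outside the clusters. Each gene was represented by its probe set with the highest mean over the 4 arrays. The RefSeq annotation of mouse assembly GRCm38.p6 lists 14 alpha, 22 beta and 22 gamma genes, so the beta cluster was covered by symbol in full, while alpha was represented by Pcdha10 alone and gamma by an entry for the whole cluster, written Pcdhg@. The symbols of 35 of the 36 genes were found in that annotation, the exception being Pcdhg@.

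The tissue came from female C57BL/6J mice aged 90 days. In the nicotine group the dams drank a nicotine solution and in the control group a saccharin solution, beginning at conception and ending for the offspring at weaning on day 21. RNA of 4 animals was combined into each pool, so the spread between individual animals was not measured. The design gives 5 pools per group, while the series has 4 arrays. Biotin-labelled RNA was hybridised to Affymetrix arrays. There were 2 arrays titled nicotine and 2 titled saccharin, numbered 1 and 2 within each title, and the design asks whether early nicotine leaves a difference in adult cortical expression. The source name of each array states the other exposure, so groups are called titled nicotine and titled saccharin, and every sign of an exposure difference turns if the source names are right. The labels do not say that arrays of 1 title held different pools. Every p-value therefore reflects no more than the spread among these arrays, part or all of which may be technical.

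Clustered protocadherins are encoded by tandem arrays of variable exons, each with its own promoter, and single neurons choose among them. The chosen isoforms bind like isoforms on other membranes, which lets a neuron tell its own branches from those of its neighbours. The protocadherins outside the clusters are grouped into delta1 (Pcdh1, Pcdh7, Pcdh9, Pcdh11x) and delta2 (Pcdh8, Pcdh10, Pcdh17, Pcdh18, Pcdh19) families, with Pcdh12, Pcdh15 and Pcdh20 beside them. They are expressed in region- and layer-restricted patterns in the brain, and several act through the actin regulators of the WAVE complex.

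All values are log2 expression values as deposited, with array medians of 3.88, 3.99, 3.89 and 4.09 in titled nicotine 1, titled nicotine 2, titled saccharin 1 and titled saccharin 2, and a lowest value of 2.1. The median level of all probe sets, 4.04, served as a line between brighter and dimmer probe sets. Levels of different probe sets depend on their probes and were not ranked against each other as RNA abundance. Arrays of the same number resembled each other more than arrays of the same title. Pearson's r over all probe sets was 0.998 between titled nicotine 1 and titled saccharin 1 and 0.993 between titled nicotine 2 and titled saccharin 2, against 0.974 to 0.980 for the other pairs of arrays. The meaning of the numbers is not given in the labels, so it is handled as a batch that only the data show, and differences are also given within each number. The limma fit by title has no term for the number, so the SE of an exposure difference includes any shift between numbers. All 7 markers of cortical excitatory neurons reached the median level. So did all 10 markers of oligodendrocytes, all 8 of microglia and 6 of 7 of astrocytes, which are found across the brain. The level was also reached by all 7 interneuron and all 8 endothelial and mural markers. It was reached by 4 of 6 markers of meninges and fibroblasts and 3 of 8 of choroid plexus. The choroid plexus markers summed to 47.35 in titled nicotine 2 and 40.40 in titled saccharin 2. In titled nicotine 1 and titled saccharin 1 they summed to 43.58 and 44.00. The part of this in the protocadherin differences was not tested. In such bulk RNA, fewer cells of a type and less RNA per cell cannot be told apart.

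Most protocadherin genes outside the clusters gave a signal in this tissue. Of the 12, 10 reached the median level with their representative probe set, beside 12206 of all 20737 named genes. The exceptions were Pcdh1, a delta1 member best known from epithelium, listed at 2.28 on all 4 arrays, and Pcdh12, an endothelial protocadherin whose 3 probe sets stood at the lowest value on all 4 arrays. The endothelial marker Cldn5, a tight junction protein, averaged 9.49 over the same arrays. Other endothelial markers were lower, with Flt1 at 8.67, Tek at 7.93, Pecam1 at 5.33, Kdr at 4.28 and Cdh5 at 4.05. Pcdh12 was thus not detectable by these probe sets, although all these endothelial transcripts reached the median level, Kdr and Cdh5 lying near it.

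**Figure D1:**
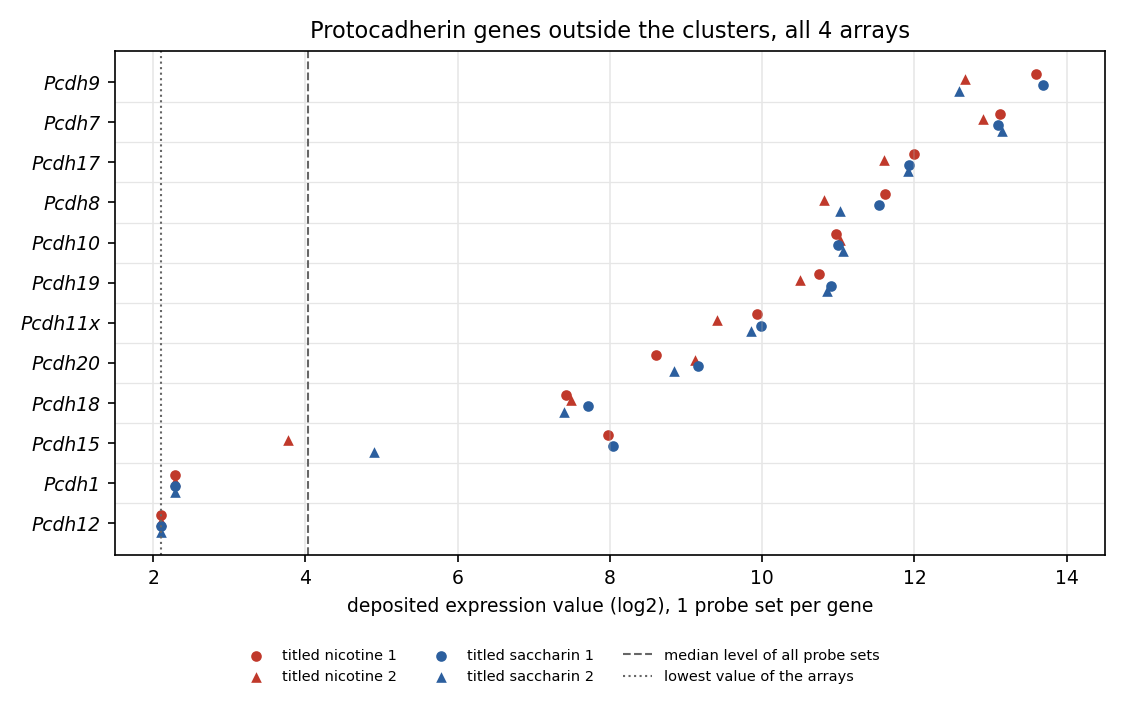
Deposited log2 values (x axis) of the 12 protocadherin genes outside the clusters (rows), with 1 point per array. Red points are titled nicotine, blue points titled saccharin, circles number 1 and triangles number 2, the dashed line marks the median of all probe sets (4.04) and the dotted line the lowest value (2.1). Pcdh9 and Pcdh15 separate circles from triangles most widely, and only Pcdh19 has both red points below both blue ones.

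Among the delta1 genes, Pcdh9, linked to the growth and branching of cortical neurons, had values of 13.60 and 12.67 in titled nicotine 1 and 2, against 13.69 and 12.58 in titled saccharin 1 and 2. The groups overlapped, and both arrays numbered 1 were the high ones. The difference was -0.00082 on the log2 scale (SE 0.67, limma adjusted p = 1.0). Pcdh7, whose protein also binds a phosphatase and a histone chaperone, stood at 13.13 and 12.90 in titled nicotine and at 13.10 and 13.15 in titled saccharin. The lowest of the 4 values was titled nicotine 2, the other 3 lay together, and the difference was -0.11 (SE 0.11, limma adjusted p = 1.0). Pcdh11x, an X-linked member, had 9.94 and 9.41 in titled nicotine and 9.99 and 9.86 in titled saccharin. Here too titled nicotine 2 was the low array, and the difference of -0.25 (SE 0.25) had a limma adjusted p of 1.0.

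By representative probe sets, Pcdh19 was the only delta2 gene whose title groups did not overlap. Pcdh10, which takes part in synapse elimination, had 10.97 and 11.02 in titled nicotine against 10.99 and 11.06 in titled saccharin (difference -0.032, SE 0.040, limma adjusted p = 1.0). The groups overlapped within a span of 0.1 or less on the log2 scale. Pcdh17, a recruiter of WAVE to contacts between axons, had 12.00 and 11.60 in titled nicotine and 11.93 and 11.91 in titled saccharin. Titled nicotine 2 was the low array, and the titles differed by -0.12 (SE 0.19, limma adjusted p = 1.0). Pcdh8, an activity-regulated gene also called arcadlin in the rat, had 11.61 and 10.81 in titled nicotine and 11.53 and 11.02 in titled saccharin. Both of its arrays numbered 1 were above both numbered 2, and the difference by title was -0.066 (SE 0.44, limma adjusted p = 1.0). Pcdh18 had 7.42 and 7.49 in titled nicotine against 7.72 and 7.40 in titled saccharin, with overlapping groups.

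Pcdh19 is the X-linked gene mutated in a human epilepsy that affects mainly heterozygous females. Judged by representative probe sets, it was the only gene outside the clusters whose title groups did not overlap at or above the median level. Its representative probe set 1455145_at had 10.75 and 10.50 in titled nicotine, against 10.90 and 10.85 in titled saccharin. The difference was -0.15 within number 1 and -0.34 within number 2, and -0.25 overall (SE 0.12, unadjusted p = 0.145, limma adjusted p = 1.0). The size of this difference did not pass the test against the spread of the arrays. Probe set 1437360_at of the same gene had 10.36 and 9.56 in titled nicotine against 10.42 and 10.17 in titled saccharin, so its groups overlapped while its difference of -0.33 had the same sign. Probe set 1444422_at had 5.27 and 5.58 in titled nicotine against 4.85 and 5.68 in titled saccharin, with a difference of the other sign, 0.16.

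The remaining genes outside the clusters were Pcdh20 and Pcdh15. Pcdh20 had 8.61 and 9.12 in titled nicotine and 9.16 and 8.84 in titled saccharin, so its difference was -0.55 within number 1 and 0.29 within number 2. Pcdh15, the tip-link partner of cadherin 23 in hair cells of the ear, had 7.97 and 3.77 in titled nicotine and 8.04 and 4.91 in titled saccharin by probe set 1444317_at. Its values split by number, both arrays numbered 1 being far above both numbered 2. The other 2 probe sets of Pcdh15 averaged 2.50 and 3.03, below the median level, and Cdh23, the gene of cadherin 23, was at 2.12 on all 4 arrays.

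Promoter sequence is printed for 4 genes on which the results turn: Pcdh7 and Pcdh9, whose probe sets disagreed most between array numbers, Pcdh15, with the largest shift of a representative probe set between them, and Pcdh19, whose title groups did not overlap. The sequences are from the RefSeq promoter table of mouse assembly GRCm38.p6, cover the 250 bases before the annotated start, run 5′ to 3′ on the strand of the gene, and have CG dinucleotides in capitals.
Pcdh7 (chr5:57717831-57718080, plus strand): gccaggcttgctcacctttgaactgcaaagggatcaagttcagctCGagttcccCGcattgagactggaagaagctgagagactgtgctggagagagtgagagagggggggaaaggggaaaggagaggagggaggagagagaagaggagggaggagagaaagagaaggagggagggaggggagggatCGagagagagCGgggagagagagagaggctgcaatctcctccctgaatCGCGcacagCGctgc
Pcdh9 (chr14:93890680-93890929, minus strand): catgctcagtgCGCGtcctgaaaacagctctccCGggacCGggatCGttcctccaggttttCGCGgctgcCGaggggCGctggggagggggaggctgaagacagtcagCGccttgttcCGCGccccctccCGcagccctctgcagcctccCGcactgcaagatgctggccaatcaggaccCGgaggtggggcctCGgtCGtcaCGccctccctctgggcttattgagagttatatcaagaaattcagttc
Pcdh15 (chr10:73821617-73821866, plus strand): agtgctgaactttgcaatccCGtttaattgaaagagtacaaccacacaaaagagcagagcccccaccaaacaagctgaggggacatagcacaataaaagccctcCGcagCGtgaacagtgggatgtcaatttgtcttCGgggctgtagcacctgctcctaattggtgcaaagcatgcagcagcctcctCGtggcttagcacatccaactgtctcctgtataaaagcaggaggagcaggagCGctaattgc
Pcdh19 (chrX:133688994-133689243, minus strand): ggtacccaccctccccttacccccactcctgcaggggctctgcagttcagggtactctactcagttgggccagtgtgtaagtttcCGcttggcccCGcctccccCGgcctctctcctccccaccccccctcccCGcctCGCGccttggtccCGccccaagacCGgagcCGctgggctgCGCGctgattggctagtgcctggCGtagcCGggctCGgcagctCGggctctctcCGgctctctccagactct

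The table held 10 such windows for 9 of the genes outside the clusters, among them 2 overlapping windows of Pcdh9. The number of CG dinucleotides was 18 for Pcdh9, 16 for Pcdh19, 7 for Pcdh7 and 6 for Pcdh15, and ranged from 3 for Pcdh20 to 23 for Pcdh18, against a median of 6 over all 32850 windows of the table. On either strand, TATAAA was present in 2 of the 10 windows, those of Pcdh15 and Pcdh8, and in 12.4% of all windows. The letters CCCTC, part of the site of the insulator protein CTCF, were in 8 of the 10 windows and in 60.5% of all windows. These are matches of letters only.

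The beta cluster gave a mixed picture, with 14 of its 22 genes at or above the median level, a share near that of all genes (12206 of 20737). Pcdhb1, Pcdhb13 and Pcdhb18 stood at the lowest value on all 4 arrays. Pcdhb2, Pcdhb4, Pcdhb6, Pcdhb8 and Pcdhb10 were also below the median level, with means from 2.14 for Pcdhb6 to 3.56 for Pcdhb4. Each beta gene consists of a single variable exon without a constant exon, so its RNA can be read by probes of its own where they do not match a neighbour. The representative probe sets of Pcdhb15 and Pcdhb14 carry identifiers ending in _s_at and _x_at, which mark probes that may match several transcripts. The other probe sets of these genes, 1421549_at of Pcdhb15 and 1421438_at of Pcdhb14, averaged 2.22 and 2.13, so both genes reached the median level only through probes that may match several transcripts.

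**Figure D2:**
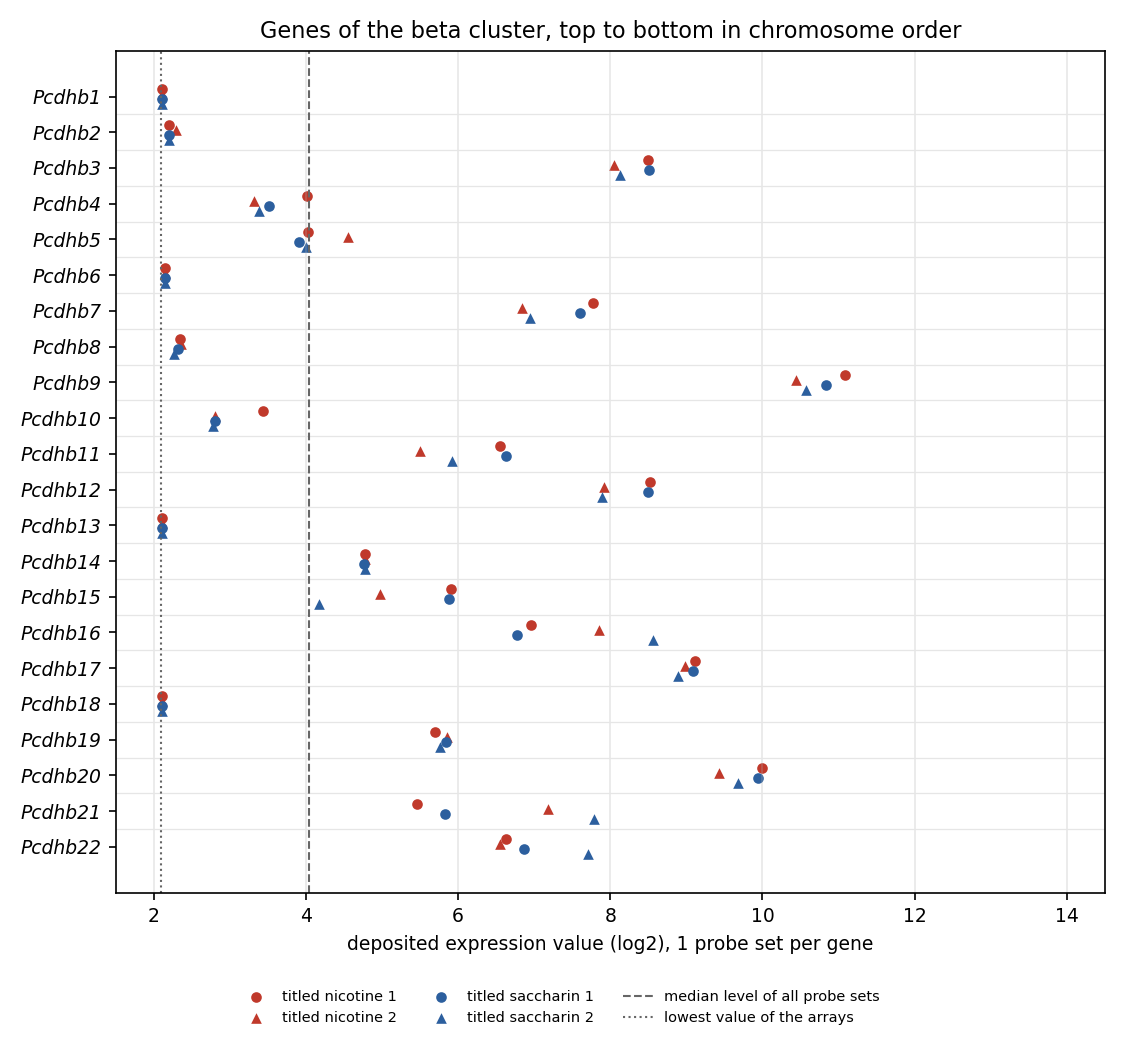
Deposited log2 values (x axis) of the 22 beta cluster genes (rows, in chromosome order), with 1 point per array: red titled nicotine, blue titled saccharin, circles number 1, triangles number 2. The dashed line is the median of all probe sets (4.04) and the dotted line the lowest value (2.1), on which Pcdhb1, Pcdhb13 and Pcdhb18 lie.

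Pcdhb9 had 11.08 and 10.44 in titled nicotine against 10.83 and 10.57 in titled saccharin, and the titles differed by 0.062 (SE 0.32, limma adjusted p = 1.0). Pcdhb20 averaged 9.72 ± 0.40 in titled nicotine and 9.81 ± 0.18 in titled saccharin (SD, n = 2 each; difference -0.095, SE 0.29, limma adjusted p = 1.0). Pcdhb17 had 9.12 and 8.98 in titled nicotine against 9.08 and 8.89 in titled saccharin (difference 0.065, SE 0.11, limma adjusted p = 1.0). In each of these genes the title groups overlapped, and both arrays numbered 2 were below both numbered 1.

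Pcdhb22 had the largest difference between titles within the beta cluster. Its probe set 1438106_at had 6.63 and 6.55 in titled nicotine, against 6.87 and 7.71 in titled saccharin. The groups did not overlap, and titled saccharin 2 stood above the other 3 arrays. The difference was -0.70 (SE 0.39, unadjusted p = 0.198, limma adjusted p = 1.0), made up of -0.24 within number 1 and -1.17 within number 2. The second probe set of Pcdhb22, 1418941_at, had 7.01 and 6.47 in titled nicotine against 6.83 and 6.45 in titled saccharin, a difference of 0.097, so the 2 probe sets of Pcdhb22 differed in sign. Judged by representative probe sets, Pcdhb5 was the only protocadherin gene at or above the median level with both titled nicotine arrays above both titled saccharin arrays. Its values were 4.03 and 4.55 against 3.91 and 4.00. Its difference was 0.33 (SE 0.24, limma adjusted p = 1.0), and all 4 values lay near the median level.

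Pcdhb12 differed between titles by the same 0.025 within number 1 and within number 2, with 8.52 and 7.91 in titled nicotine and 8.50 and 7.89 in titled saccharin. Pcdhb3 had 8.49 and 8.05 in titled nicotine and 8.51 and 8.13 in titled saccharin. Pcdhb19 had 5.69 and 5.85 in titled nicotine and 5.85 and 5.76 in titled saccharin. In all 3 genes the titles overlapped. Pcdhb14 was the most even of the cluster at this level, with 4.77 and 4.77 in titled nicotine and 4.76 and 4.78 in titled saccharin. Any 2 arrays held equal values at 36.9% to 38.8% of probe sets. The share of values at the lowest value was 26.1% to 26.4% per array, so equal values also occurred above it. Such evenness of 1 probe set need not mean stable RNA. The other beta genes to reach the median level were Pcdhb7, Pcdhb11, Pcdhb15, Pcdhb16 and Pcdhb21, with differences by title between -0.49 for Pcdhb21 and 0.41 for Pcdhb15 and overlapping groups.

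The alpha and gamma entries rested on 1 probe set each. Pcdha10 was listed at 3.56 and 4.06 in titled nicotine and at 3.56 and 3.56 in titled saccharin, below the median level. Pcdhg@ had 5.48 and 5.47 in titled nicotine and 5.45 and 7.20 in titled saccharin. The array titled saccharin 2 alone was high. The difference of -0.85 (SE 0.81, limma adjusted p = 1.0) came to 0.029 within number 1 and -1.73 within number 2, and to 0.025 without titled saccharin 2.

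By exposure, 0 of the 66 protocadherin probe sets passed a limma adjusted p of 0.05, and 0 had an unadjusted p under 0.05, against 0.00222% of all probe sets called and 0.769% with an unadjusted p under 0.05. The call over all probe sets was 1 probe set without a gene symbol, 1445361_at. Without titled nicotine 1, limma called 2 protocadherin probe sets, those of Pcdha10 (0.49, adjusted p = 0.0458) and Pcdh15 1442326_at (-0.48, adjusted p = 0.0467), both with means below the median level. Leaving out any other array gave 0. With 2 arrays against 2, an exact permutation test of 1 gene cannot give a two-sided p below 0.333.

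Of the 25 protocadherin genes at or above the median level, 1 had titled nicotine above titled saccharin with no overlap (Pcdhb5; background 2.71% of such genes) and 2 had it below (Pcdh19 and Pcdhb22; background 7.21%). The median difference over these 25 genes was -0.095, with 6 positive and 18 negative values, and that of all 12206 genes at this level was -0.029, with 4734 positive and 7311 negative values. These splits depended on the scale of the arrays. After centring each array on its median, 11 of the 25 were positive and 14 negative, and of all such genes 7126 were positive and 5080 negative. After quantile normalization, the 25 split into 9 positive and 16 negative.

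All 10 genes outside the clusters at this level had a negative difference by title, with a median of -0.12, from -0.60 for Pcdh15 to -0.00082 for Pcdh9. After centring, 8 of the 10 were negative, and after quantile normalization 9. Within the numbers, 4 of the 10 were negative in both and 6 changed sign. Over all 12 genes outside the clusters the median difference by title was -0.11. That median was -0.27 to 0.0025 with 1 array left out, and -0.021 with the mean of a gene's probe sets. The shared direction thus depended on single arrays and on the choice of probe set. The 15 clustered genes at this level had 6 positive and 8 negative differences and a median of -0.033, which was 0.021 after centring. Over all 25 genes, the median difference by title was 0.0085 in the arrays numbered 1 and -0.13 in those numbered 2. A difference of the same sign in both numbers was positive in 4 of the 25 (background 16.8%) and negative in 8 (background 30.6%).

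**Figure D3:**
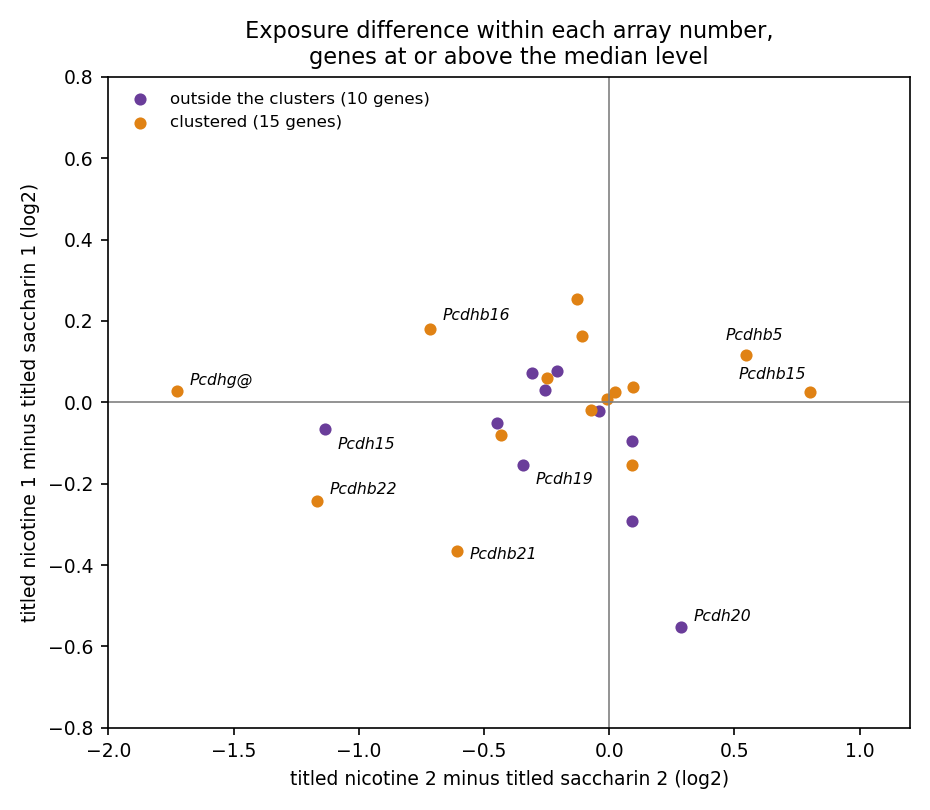
Difference between titled nicotine and titled saccharin (log2) within number 1 (y axis) against that within number 2 (x axis) for the 25 protocadherin genes at or above the median level, 1 point per gene. Genes outside the clusters are purple and clustered genes orange. Pcdhg@, Pcdhb22 and Pcdh15 reach -1.73, -1.17 and -1.13 within number 2 and lie between -0.24 and 0.03 within number 1.

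The arrays numbered 2 differed from the arrays numbered 1 far more than the titles did. Limma called 2 of the 66 protocadherin probe sets between the numbers, against 2.44% of all probe sets (1.2% higher and 1.25% lower in the arrays numbered 2), and 19 of 66 had an unadjusted p under 0.05, against 22.3% of all. Pcdhb12 fell in the arrays numbered 2, with 7.91 and 7.89 there against 8.52 and 8.50 in the arrays numbered 1 (difference -0.61, SE 0.016, limma adjusted p = 0.0338). Its difference was -0.61 within titled nicotine and within titled saccharin alike. The small SE reflects near-equal values on these arrays and may understate the real spread. Pcdh7 rose by its probe set 1456214_at, with 13.14 and 13.21 in the arrays numbered 2 against 10.02 and 10.22 in the arrays numbered 1 (difference 3.05, SE 0.097, limma adjusted p = 0.0377). Neither call held with any 1 of the 4 arrays left out, where total degrees of freedom were 1.3 in place of 2.33. The limma adjusted p was then 0.0768 to 0.133 for Pcdhb12 and 0.0859 to 0.116 for Pcdh7, while the differences were -0.62 to -0.60 and 2.96 to 3.15. The number of protocadherin calls was 1 (Pcdh15 1421503_at) when titled nicotine 1 was left out and 7 when titled nicotine 2 was. It was 0 when titled saccharin 1 was left out and 8 when titled saccharin 2 was.

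Between the numbers, the shares of beta cluster genes without overlap were near those of genes in general. Of its 14 genes that reached the median level, 8 had the arrays numbered 2 below those numbered 1 with no overlap (background 54.9% of genes at this level) and 2 had them above (background 19.5%). Among those below, Pcdhb15 had 4.98 and 4.18 in the arrays numbered 2 against 5.91 and 5.89 in the arrays numbered 1, and Pcdhb7 had 6.84 and 6.95 against 7.77 and 7.61. The 2 above were Pcdhb21, with 7.18 and 7.79 in the arrays numbered 2 against 5.46 and 5.82 in the arrays numbered 1, and Pcdhb16, with 7.85 and 8.56 against 6.95 and 6.77. None of these 4 passed the limma threshold, their adjusted p lying between 0.0940 for Pcdhb7 and 0.240 for Pcdhb15. Over the 25 protocadherin genes the median difference between numbers was -0.17, beside -0.18 over all genes at this level. Array medians went the other way, being higher by 0.16 in the arrays numbered 2. After centring each array on its median, the median difference was -0.32 over the 25 genes and -0.34 over all genes at this level.

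Outside the clusters, 8 of the 10 representative probe sets that reached the median level had a negative difference between numbers. Pcdh15 had the largest shift, with 3.77 and 4.91 in the arrays numbered 2 against 7.97 and 8.04 in the arrays numbered 1 (difference -3.67, SE 0.53, limma adjusted p = 0.116). Pcdh9 had 12.67 and 12.58 against 13.60 and 13.69, a difference of -1.02 (SE 0.061, limma adjusted p = 0.0566). Pcdh10 was nearly level at 11.02 and 11.06 against 10.97 and 10.99, a difference of 0.060 that was negative once arrays were centred. No member named in these sentences passed the threshold.

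Second probe sets of the same genes often differed with the other sign. For Pcdh9, where 1429861_at was lower in the arrays numbered 2, 1458269_at had 7.77 and 6.79 there against 4.90 and 4.21 in the arrays numbered 1, and 1442659_at had 10.46 and 10.34 against 9.52 and 9.70. For Pcdh7, where 1437442_at differed by -0.094, the called probe set 1456214_at differed by 3.05 and 1427592_at by 4.93, with 8.75 and 7.49 against 3.22 and 3.17. For Pcdh10, 1444301_at had 6.99 and 7.30 against 4.39 and 4.39, the same sign as the 0.060 of 1438134_at but far larger. The other sign was found for 1430667_at (-0.070) and 1425563_s_at (-0.082). For Pcdh11x, 1438889_at differed by 1.48 and 1436449_at by -0.33.

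Of the 9 protocadherin genes with more than 1 probe set reaching the median level, 5 had probe sets whose difference between numbers spanned more than 1 log2 unit (55.6%, against 43.3% of 5340 genes of all kinds), and 6 had probe sets of opposite sign (66.7%, against 54.3%). The widest spans were 5.02 for Pcdh7, 3.75 for Pcdh9 and 2.84 for Pcdh10, and the narrowest was 0.19 for Pcdh8. The span of Pcdh7 was set by 1427592_at, with 3.22 and 3.17 in the arrays numbered 1, below the median level. It reached that level only through the arrays numbered 2, so its span is not independent of the filter. Pcdh7 1456214_at, above the level on all arrays, differed by 3.05, and 1437442_at by -0.094. Values that moved with the numbers included the control probe sets of Actb, where the signal at the 3′ end exceeded that at the 5′ end by 1.25 and 1.73 in the arrays numbered 2 and by 2.39 and 2.38 in the arrays numbered 1. The same quantity for Gapdh was -0.14 and 0.0070 in the arrays numbered 2 and 0.092 and 0.13 in the arrays numbered 1. The summed log2 level of 7 astrocyte markers was 82.19 and 82.16 in the arrays numbered 2 and 78.35 and 78.59 in the arrays numbered 1, with Aldh1l1 alone below the median level. Gfap made up 3.21 of that shift of 3.71, and 4 of the 7 markers had a positive and 3 a negative difference between numbers. The 7 excitatory neuron markers summed to 82.87 and 82.01 in the arrays numbered 2 and to 80.68 and 81.21 in the arrays numbered 1, a shift of 1.49. Slc17a7 differed by 2.46 and Camk2a by -0.65, and 3 of these 7 markers had a positive and 3 a negative difference. Sums of interneuron markers shifted by -1.53 (6 of 7 lower in the arrays numbered 2) and of endothelial and mural markers by -1.90 (6 of 8 lower). The shift was -0.92 for microglia, -0.82 for oligodendrocyte, 1.18 for meninges and fibroblast and 0.087 for choroid plexus markers. The part of all these values in the protocadherin differences was not tested.

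**Figure D4:**
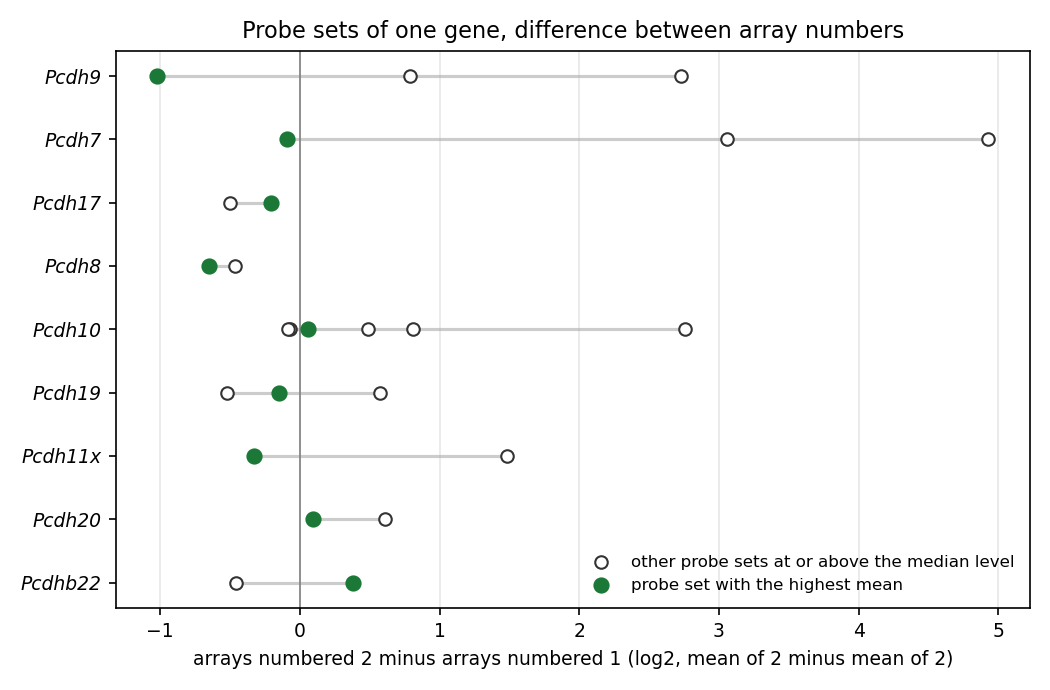
Difference between the arrays numbered 2 and the arrays numbered 1 (log2, x axis) for every probe set that reached the median level in the 9 protocadherin genes with more than 1 such probe set (rows). Filled points are the probe sets with the highest mean, open points the other probe sets, and the grey line spans a gene's probe sets, reaching 5.02 for Pcdh7 and 0.19 for Pcdh8. The end of the Pcdh7 line is a probe set that reached the median level only through the arrays numbered 2.

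By exposure, second probe sets whose mean reached the median level gave differences over 0.5 for Pcdh9 and Pcdh7. Pcdh9 1458269_at had 4.90 and 7.77 in titled nicotine against 4.21 and 6.79 in titled saccharin, a difference of 0.83, and Pcdh7 1427592_at had 3.22 and 8.75 against 3.17 and 7.49, a difference of 0.66. In both, the spread between the numbers was larger than the difference between the titles. Pcdh10 1425563_s_at had 8.85 and 9.12 in titled nicotine against 8.71 and 8.28 in titled saccharin, with no overlap and a difference of 0.49 (SE 0.24, limma adjusted p = 1.0), while 1438134_at of the same gene was even. At that level, signs opposite to the representative were also found for Pcdh10 1430667_at (0.069), Pcdh17 1436920_at (0.074) and Pcdh8 1417051_at (0.047).

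The authors' deposited table gave 3 of the 66 protocadherin probe sets an unadjusted p under 0.05, against 1.89% of all probe sets, and 0 an adjusted p under 0.05, against 0.031%. In the authors' deposited table these were Pcdh19 1444422_at (log2 fold change -0.50, p = 0.00224), Pcdh10 1425563_s_at (-0.53, p = 0.0107) and Pcdhb22 1438106_at (0.76, p = 0.0276). The mean level of Pcdh19 1444422_at there was 2.39, near the smallest mean of that table, 2.14. Over the 4 arrays used here the mean of this probe set was 5.34. The direction of the authors' deposited table and the arrays behind it are not stated. Its p-values and signs may rest on other arrays than the 4 used here. Its signs were opposite to titled nicotine minus titled saccharin in 33 of the 40 protocadherin probe sets that reached the median level and had a difference in both, and in all 3 of these probe sets.

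Genes that work with protocadherins were described by 5 lists, in which limma called 0 genes by exposure (background 0.0% of 20737 genes). Between numbers, limma called 2.49% of all genes, so a count of 0 in a list this short is near the background. Of 16 genes for promoter choice and chromatin at the clusters, such as CTCF and cohesin subunits, 0 were called by exposure or between numbers. The median difference by title over this list was -0.045, with Stag2 at -0.053, Smc3 at 0.041 and Smc1a at -0.048, all subunits of cohesin. The list of 20 signalling partners had a median of 0.019, with the WAVE subunit Abi1 at 0.17 and the receptor Ret at 0.27. Between numbers, Fyn, a tyrosine kinase (0.96, limma adjusted p = 0.0288), and Rac1, a small GTPase upstream of WAVE (0.75, limma adjusted p = 0.0485), rose in the arrays numbered 2, and Adam10, a protease that cleaves cadherins (-0.17, limma adjusted p = 0.0362), fell. None of these 3 calls held with any 1 array left out, the lowest limma adjusted p being 0.0674 for Fyn, 0.0611 for Rac1 and 0.0914 for Adam10.

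Among relatives in the cadherin superfamily, 15 of 18 listed classical and type II cadherins were measured, with a median difference by title of 0 and 0 calls in either comparison. Cdh7 differed by -0.43, Cdh13 by -0.14 and Cdh11 by 0.11. Of 14 Fat, Dachsous, Celsr and calsyntenin genes, 13 were measured. Clstn1, a calsyntenin carried along axons, had 14.27 and 14.24 in titled nicotine against 14.35 and 14.35 in titled saccharin, with no overlap, a difference of -0.099 and an unadjusted p of 0.0173 that did not survive adjustment (limma adjusted p = 1.0). Clstn2 differed by -0.11 and the photoreceptor cadherin Cdhr1 by 0.43. Between numbers, Celsr3, a planar polarity cadherin needed for axon tracts, fell to 7.19 and 7.28 in the arrays numbered 2, against 8.62 and 8.51 in the arrays numbered 1 (difference -1.32, limma adjusted p = 0.0492). With 1 array left out its limma adjusted p was 0.119 to 0.191. The 7 catenins had 0 calls in either comparison, with Jup at 0.21, Ctnnd2 at -0.052 and Ctnna2 at 0.045 by title.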

How the data were processed

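Each value the authors deposited for an array is on a log2 scale, 1 per probe set, as read from the values. How background was corrected, arrays scaled and probes summarised is not given in the sources used here. The authors' deposited table of comparisons has log2 fold changes and log2 mean levels, per the file headers. It also has p-value columns, plain and adjusted, per the file headers, and 2 columns of unit score (a moderated statistic and log odds) that the authors' fit produced. The submitters' processing notes name limma. In that table, statistic and p correspond to 8.37 total degrees of freedom, against 2.32 in the fit of the 4 arrays. Neither its direction nor its arrays are stated. The design gives 5 pools per group, so the table may rest on other arrays than the 4 used here.

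Groups and numbers came from the array titles. Values were used without further scaling or filter and entered lmFit and eBayes of limma 3.58.1 (R 4.3.3) over 45101 probe sets, with Benjamini-Hochberg adjustment over all of them and a threshold of 0.05. The 2 contrasts were titled nicotine minus titled saccharin and number 2 minus number 1. The fit by title was also run on simulated arrays, where signs and sizes of added differences were checked. Those arrays had no shift between numbers, so the check does not show error rates for these data. A usable symbol was lacking for 6778 probe sets, in 58 cases because it had become a date. The number of arrays limits the precision.

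The members, lists and rules were chosen with earlier results of these data known. Every gene outside the clusters and every clustered gene at the median level is named. Full statistics are given for the 10 genes with the highest means and the 6 with the smallest p by exposure, second probe sets where the sign is opposite or the difference is over 0.5, and up to 3 genes a list. A gene that this rule selects is not reported here. Alternatives were quantile normalization, centring, a filter at the median level, a trend and robust variance, the number as a replicate block, the mean of a gene's probe sets, the authors' deposited table and leaving out each array. One more, without identifiers ending in _s_at or _x_at, was chosen after seeing the data. Genes called between numbers, and other probe sets given for their shift, were named after their values were seen.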

Additional observations from a re-analysis of the deposited data

How the results depend on the processing

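By exposure, the call over all probe sets was lost (0 in place of 1) under quantile normalization, centring, the filter on dim probe sets, the trend and robust variance and the replicate block, and the counts were 0 to 379 with 1 array left out. The protocadherin count of 0 was 0 to 2 with 1 array left out. The number pairs 2 arrays of each title, and the deviations of same-numbered arrays from their title's mean correlated at 0.804 over probe sets, but nothing in the labels says what the number shares. With the replicate block and centred arrays, where limma estimated infinite prior degrees of freedom and so 1 common variance, 971 probe sets were called, 1 of them a protocadherin (Pcdh9 1458269_at, 0.89, adjusted p = 0.0316). Between numbers, 1102 calls became 9501 with centring, 6820 with the filter, 1878 with trend and robust variance, 0 with the replicate block, 8847 with the replicate block and centring, and 989 to 3177 with 1 array left out. The 2 protocadherin calls became 4 with quantile normalization (Pcdhb3, Pcdhb16 1441358_at, Pcdh10 1444301_at, Pcdh7 1456214_at), 22 with centring, 17 with the filter, 5 with trend and robust variance (Pcdh9, Pcdh11x 1438889_at, Pcdhb16 1441358_at, Pcdh10 1444301_at, Pcdh7 1456214_at), 0 with the replicate block, 18 with block and centring, and 0 to 8 with 1 array left out. The Pcdhb12 call was lost under quantile normalization (limma adjusted p = 0.0544), trend and robust variance (0.050) and the block (0.0836), and the Pcdh7 call under the block (0.131). The calls of Fyn, Rac1, Adam10 and Celsr3 between numbers were also lost under the block (limma adjusted p 0.0836, 0.156, 0.106 and 0.219), and that of Adam10 with centring (0.0607), the filter (0.109) and trend and robust variance (0.0825). With block and centring, those of Rac1 (0.0940) and Adam10 (0.562) were lost. By exposure, the block gave 2 of 66 protocadherin probe sets an unadjusted p under 0.05 (Pcdhb12 and Pcdh8 1417051_at), against 4.92% of all probe sets, and 0 an adjusted one.

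The median difference by title over all 36 protocadherin genes, -0.00041, was 0.053 with centring, alone or with the block, -0.095 with the filter, and -0.049 to 0.032 with 1 array left out. Between numbers it was -0.057, and -0.14 with quantile normalization, -0.21 with centring, alone or with the block, -0.17 with the filter, 0 with the mean of a gene's probe sets, -0.0100 without identifiers ending in _s_at or _x_at, and -0.10 to -0.017 with 1 array left out. The sign by title turned for Pcdh9 (0.0043 with quantile normalization, 0.053 with centring, alone or with the block, and 0.27 with the mean of its probe sets), Pcdh7 (0.11 with the mean of its probe sets) and Pcdh10 (0.022 with centring, alone or with the block). Centring moves every array by its own median and the filter removes genes; causes of the other changes were not tested. With 1 array left out, differences ran from -0.56 to 0.56 for Pcdh9, -0.23 to 0.0049 for Pcdh7, -0.32 to 0.082 for Pcdh17, -0.46 to 0.33 for Pcdh8, -0.068 to 0.0035 for Pcdh10, -0.26 to 0.38 for Pcdhb9, -0.51 to 0.014 for Pcdh11x, -0.38 to 0.19 for Pcdhb20, -0.033 to 0.16 for Pcdhb17 and -1.72 to 0.025 for Pcdhg@, while Pcdh19 (-0.37 to -0.13), Pcdhb22 (-1.13 to -0.28) and Pcdhb5 (0.073 to 0.59) kept their sign in each of these. Where the setting left 1 array in a group, that array was assumed to vary like the others. Values at or near 2.1 carry no measurable difference.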
